A study of Mus musculus with 12 samples.

Results

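The ERBB receptors and the EGF-like ligands that bind them were followed across the mammary glands and mammary tumors of Brca1-deficient mice. Members were taken by name: the receptors Egfr, Erbb2, Erbb3 and Erbb4, and the ligands Ereg, Hbegf, Tgfa, Btc and Nrg1. All 9 had a row among the 21743 genes of the count table. The RNA of single cells was counted by Drop-seq, in which droplets pair a cell with a barcoded bead and PCR copies of a captured molecule are collapsed by its unique molecular identifier (UMI). The 4 groups came from 2 mice, each with a gland and a tumor: MG1 (2 libraries, 818 cells) and MT1 (5 libraries, 7690 cells) from mouse 1, and MG2 (2 libraries, 2335 cells) and MT2 (3 libraries, 10314 cells) from mouse 2. Every group had the genotype MMTV-Cre; Brca1 flox/flox with C57BL/6 and 129/Sv mixed ancestry and a Cre that is active in mammary epithelium, so the glands are from tumor-bearing mutants and no wild-type gland was compared. During digestion all groups were kept in a medium that held EGF, itself a ligand of Egfr, together with insulin and hydrocortisone, and afterwards all were depleted of hematopoietic and endothelial cells. The labels give no age for these animals, and the study's methods give one for its gland donors in general without tying it to these 2 mice.

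The libraries of a group are repeats of 1 tissue of 1 mouse, so their spread and the p-values below measure variation between libraries, not between animals. Library depth ranged from 693333 to 14841414 UMIs, and the median UMIs per cell from 1784 to 4842. Libraries shared between 0 and 7 cell barcodes. Because Drop-seq reads the 3′ end of a transcript, its Brca1 counts carry no information on the floxed exons, and they check no label.

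The ERBB receptors are tyrosine kinases of the cell surface that act in pairs. Egfr binds EGF, Tgfa, Hbegf, Ereg and Btc; Erbb3 and Erbb4 bind neuregulins such as Nrg1; Erbb2 has no known ligand of its own and serves as the partner of the others, and Erbb3 has only a weak kinase. Most of the ligands are made as membrane proteins and released by ADAM proteases, and in the mammary gland the family is known for ductal growth, alveolar development and lactation, and Erbb2 for its amplification in human breast cancer.

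The family is scattered over the mouse genome. In the GENCODE annotation of GRCm38, Egfr lies at chr11:16752203-16918158 and Erbb2 on the same chromosome at chr11:98412470-98437716, both on the plus strand. Erbb3 lies at chr10:128567523-128589652 and Erbb4 at chr1:68032186-69108059, both on the minus strand. Ereg (chr5:91074622-91093646, plus strand) and Btc (chr5:91357261-91402994, minus strand) belong to 1 ligand cluster with Epgn, which encodes the related ligand epigen (chr5:91027464-91035215, plus strand). Tgfa is at chr6:86195223-86275719 on the plus strand and Nrg1 at chr8:31814551-32884029 on the minus strand.

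RefSeq promoter windows of GRCm38.p6, from 250 bases before to 50 bases after the start, were matched for 5 of the 9 members (Btc, Egfr, Erbb2, Erbb4 and Tgfa). Those of 3 genes that were lower in a tumor than in its gland are shown 5′ to 3′ on the strand of the gene: Egfr (chr11:16751953-16752252, plus), which fell in MT1, Erbb4 (chr1:69108010-69108309, minus), which was at 0 in both tumors, and Btc (chr5:91402945-91403244, minus), which fell in MT2. Capitals mark matches on either strand to the motifs GGGCGG (the GC box), TATAAA (the TATA box), CANNTG (the E-box) and TGANTCA (the AP-1 site).
Egfr: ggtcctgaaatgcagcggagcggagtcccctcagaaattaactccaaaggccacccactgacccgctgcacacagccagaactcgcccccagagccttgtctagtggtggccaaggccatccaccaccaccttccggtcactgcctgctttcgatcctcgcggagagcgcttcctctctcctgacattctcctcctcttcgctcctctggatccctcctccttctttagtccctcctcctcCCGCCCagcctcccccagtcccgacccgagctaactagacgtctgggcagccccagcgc
Erbb4: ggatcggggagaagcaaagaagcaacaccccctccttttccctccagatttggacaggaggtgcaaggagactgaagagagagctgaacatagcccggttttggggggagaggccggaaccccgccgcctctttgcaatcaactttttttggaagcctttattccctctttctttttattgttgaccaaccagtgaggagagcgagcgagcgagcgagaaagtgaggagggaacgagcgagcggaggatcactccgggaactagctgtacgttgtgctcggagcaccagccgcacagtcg
Btc: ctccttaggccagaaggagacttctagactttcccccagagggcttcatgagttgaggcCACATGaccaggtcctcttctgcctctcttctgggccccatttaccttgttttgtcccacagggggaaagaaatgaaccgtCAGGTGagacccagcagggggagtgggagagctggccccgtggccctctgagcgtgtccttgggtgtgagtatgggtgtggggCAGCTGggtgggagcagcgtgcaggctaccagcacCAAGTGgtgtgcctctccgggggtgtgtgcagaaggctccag
The Egfr window held 1 GC box match and none to the other motifs, the Erbb4 window no match to any of them, and the Btc window 4 E-box matches. Of all 32851 promoter windows of this length, 35.7% held a GC box, 13.6% a TATA box, 72.3% an E-box and 7.8% an AP-1 site. The G+C content was 62.3% for Egfr, 55.3% for Erbb4 and 60.3% for Btc, against a median of 52.7% over all windows, and CpG pairs numbered 15, 17 and 5, against a median of 7.

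To place the members in cell types, cells were grouped into 11 clusters from variable genes that did not include them. Luminal hormone-sensing-like, luminal secretory-like and basal-like cells were mostly from the glands. MT1 formed an epithelial-like cluster led by Sfrp1 and 2 unnamed clusters led by Ccl20 and by Prl2c3. Of the 9 epithelial markers, the Sfrp1 cluster carried 4, the Ccl20 cluster 8 and the Prl2c3 cluster 0. The Ccl20 cluster stayed unnamed because the immune marker Cd74 was among its leading genes. MT2 formed 2 unnamed clusters, led by Grem1 and, with mitotic genes, by Cenpe. Fibroblast-like, endothelial-like and immune-like cells, 1130 in all, were set apart as stromal clusters, and the other 20027 cells were summed per library for the comparisons of tumor and gland. The fibroblast-like cluster also carried 3 mural markers, and the endothelial-like cluster 6 of the 9 markers of the basal list.

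These sums hold different cells in the tumors and the glands, and fewer cells of a type and less RNA per cell cannot be told apart in them. The 9 epithelial markers together reached 13480 to 15030 CPM (UMIs scaled to the library total) in MG1 and 12430 to 12480 in MG2, but 7462 to 9737 in MT1 and only 645 to 878 in MT2. The 9 fibroblast markers reached 458 to 721 CPM in MG1, 306 to 332 in MG2, 337 to 460 in MT1 and 3326 to 3764 in MT2, with no marker of either list at 0 in any group. The epithelial markers were thus lowest, and the fibroblast markers highest, in MT2. The 11 markers of luminal hormone-sensing cells summed to 2648 to 2753 CPM in MG1 and 2147 to 2317 in MG2, against 102 to 163 in MT1 and 56.3 to 65.8 in MT2 (Foxa1, Prom1 and Calca at 0). The 11 markers of luminal secretory cells summed to 4558 to 11290 CPM in MG1, 10060 to 10320 in MG2, 2064 to 2615 in MT1 and 128 to 167 in MT2 (Wap at 0). Both luminal lists were lower in every tumor library than in its gland, and the 9 cycling markers were higher, at 146 to 205 CPM in MG1, 210 to 247 in MG2, 562 to 1114 in MT1 and 1336 to 1789 in MT2. Basal-like cells numbered 106 in MG1 and 220 in MG2 but 4 in MT1 and 0 in MT2, and the 9 basal markers summed to 784 to 809 CPM in MG1, 730 to 824 in MG2, 193 to 209 in MT1 (Oxtr at 0) and 27.6 to 28.7 in MT2 (Krt5 and Oxtr at 0). The part of these markers in the results below was not tested.

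Each tumor was first compared with the gland of the same mouse. In MT1 the receptors Egfr and Erbb3 and the ligand Nrg1 fell and Hbegf rose, while in MT2 Erbb2, Erbb3 and Btc fell, and no UMI of Erbb4 was counted in either tumor. Ereg fell in MT2 in these sums without stromal cells and rose with the stromal clusters included. Of the 9 members, 5 passed the test in MT1 against MG1 (1 higher, 4 lower), where 59.3% of all 13652 genes tested did, 32.2% higher and 27.1% lower. In MT2 against MG2 5 passed as well, all lower, where 67.0% of all genes did, 32.7% higher and 34.3% lower. The share of members called is thus near that of all genes. Their median log2 change was -0.79 in MT1 and -0.94 in MT2, beside 0.11 and -0.05 over all genes. The test throughout was edgeR's quasi-likelihood test with Benjamini-Hochberg adjustment over all genes tested. Levels are in CPM scaled by edgeR's factors.

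**Figure D1:**
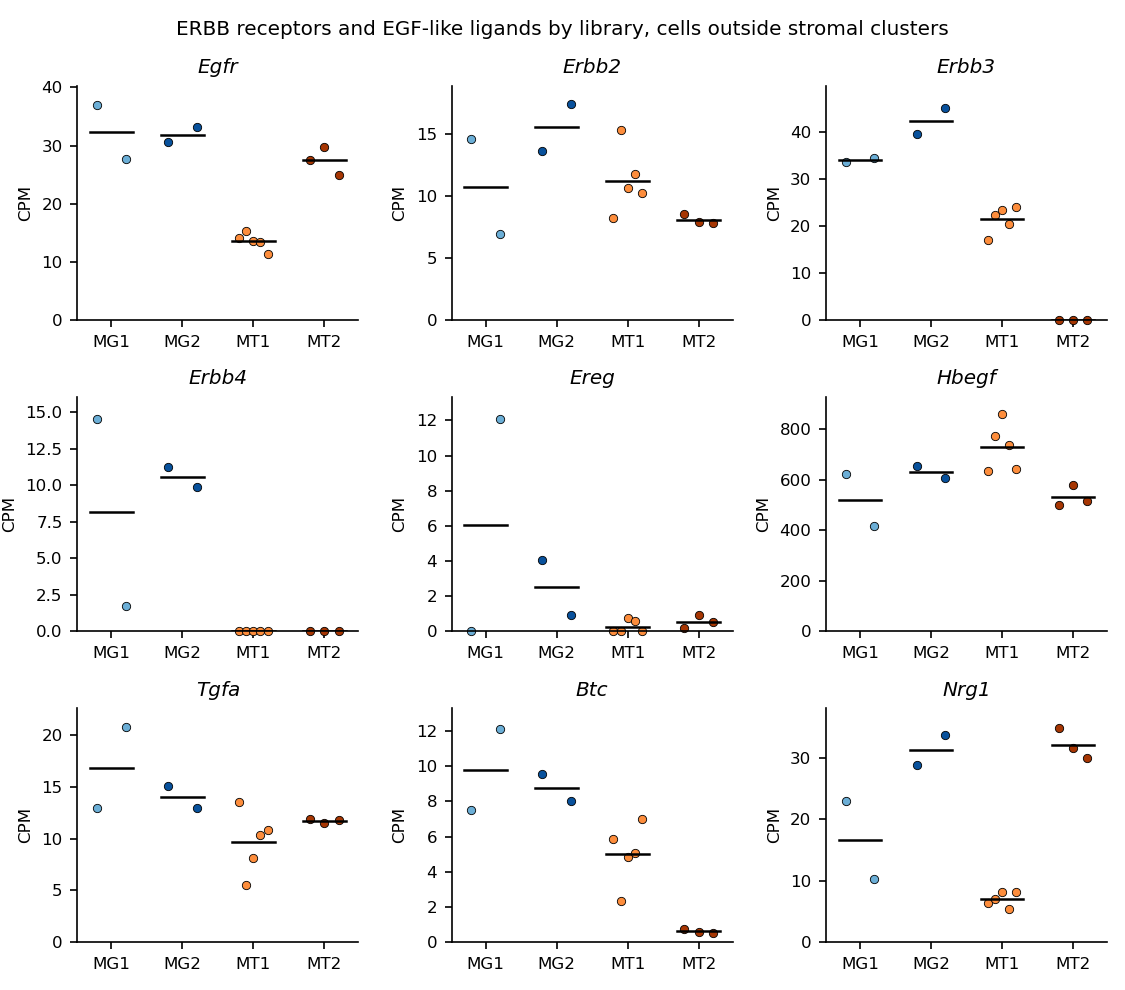
Level of each member in CPM (linear axis from 0) in every library, for cells outside the stromal clusters; each point is 1 library, each line the mean of its group. The 5 MT1 libraries lie below both glands for Egfr, Erbb3 and Nrg1, while MT2 lies at 0.633 ± 0.0948 CPM for Btc and at almost 0 for Erbb3.

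Egfr, the receptor of most EGF-like ligands, stood at 37.0 and 27.6 CPM in the MG1 libraries and at 14.1, 15.3, 13.6, 13.5 and 11.4 CPM in the MT1 libraries. All MT1 libraries were below both MG1 libraries, and the log2 change was -1.34 ± 0.19 (SE; adjusted p = 1.34e-05). In mouse 2 the levels were 30.6 and 33.2 CPM in MG2 and 27.6, 29.8 and 25.01 CPM in MT2. The MT2 libraries lay below both MG2 libraries, but the change of -0.22 ± 0.16 did not pass the test (adjusted p = 0.236), while with the stromal clusters included it was -0.53 and did (adjusted p = 0.0200). With those clusters the change in mouse 1 was -2.27. The changes in the 2 mice differed by -1.12 ± 0.25 (adjusted p = 0.00138; -1.74 with the stromal clusters), a comparison in which 5 members were called (3 higher, 2 lower) and 43.5% of all genes tested were (26.4% higher, 17.0% lower). Both calls of Egfr rested on MG1 replicate 1: without it the change in mouse 1 was -0.92 (adjusted p = 0.0535) and the difference between the mice -0.74 (adjusted p = 0.143).

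Erbb2, the partner receptor, was at 14.6 and 6.9 CPM in MG1 and between 8.2 and 15.3 CPM (median 10.6) in MT1, so these groups overlapped and the change of -0.16 ± 0.30 did not pass (adjusted p = 0.669). In MG2 it was at 13.6 and 17.4 CPM, and in MT2 at 8.5, 7.9 and 7.9 CPM. All MT2 libraries were lower than both MG2 libraries, by -0.94 ± 0.23 on the log2 scale (adjusted p = 0.00145), but without MG2 replicate 2 the change was -0.54 (adjusted p = 0.137). The difference between the mice, 0.78 ± 0.37, did not pass (adjusted p = 0.0979), but did without MG1 replicate 1 (1.72, adjusted p = 0.0348), where the change in mouse 1 was 0.82 (adjusted p = 0.312).

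Erbb3, which pairs with Erbb2 to bind neuregulin, was at 33.7 and 34.5 CPM in MG1 and at 17.0, 22.3, 23.4, 20.6 and 24.2 CPM in MT1. No MT1 library reached the MG1 libraries, and the log2 change was -0.64 ± 0.21 (adjusted p = 0.0136); without MG1 replicate 1 it was -0.54 and did not pass (adjusted p = 0.225), and with the stromal clusters included it was -0.37 (adjusted p = 0.136). In MG2 it was at 39.5 and 45.2 CPM, from 357 UMIs. The 3 MT2 libraries together held 3 UMIs of Erbb3 among 41049863, which made the pooled level in MG2 612 times that in MT2, with a counting interval from 208 to 2982. The adjusted p of the fitted change was 9.49e-14 in MT2 and 5.02e-11 for the difference between the mice.

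Erbb4, the other neuregulin receptor, was sparse, with 35 and 1 UMIs in the MG1 libraries and 47 and 42 in the MG2 libraries. Almost all MG1 UMIs were thus from replicate 1. None was counted in any of the 8 tumor libraries, which held 19439196 UMIs in MT1 and 41049863 in MT2. Set against the limit that 0 counts allow (3 counts over the group), Erbb4 was at least 73.4-fold lower in MT1 than in MG1 and at least 153-fold lower in MT2 than in MG2. The bound in mouse 1 rests on MG1 replicate 1. Replicate 2 alone held 1 UMI among 521584, or 1.7 CPM in scaled levels, beside a limit of 0.154 CPM in MT1. A bound from this library would be far lower, and 1 UMI is too few to set one. The fitted change passed in both mice (adjusted p = 1.30e-05 and 5.70e-07), and no difference between the tumors can be given.

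Among the ligands, Hbegf, which binds Egfr and Erbb4, was at 622.9 and 418.0 CPM in MG1 and at 635.1, 772.0, 861.3, 736.4 and 644.2 CPM in MT1. Every MT1 library was above both MG1 libraries, the log2 change being 0.47 ± 0.17 (adjusted p = 0.0264). This call was lost without MG1 replicate 2 (0.25, adjusted p = 0.262), without MT1 replicate 3 (0.41, adjusted p = 0.0570), with DESeq2 (0.33, adjusted p = 0.0594), with edgeR's RLE factors (0.34, adjusted p = 0.0787) and in a fit of the 2 groups alone (0.38, adjusted p = 0.0731). In mouse 2 the MG2 libraries had 656.2 and 607.1 CPM and the MT2 libraries 498.9, 579.7 and 514.7 CPM, a change of -0.25 ± 0.18 that did not pass (adjusted p = 0.233). The difference between the mice was 0.72 ± 0.25 (adjusted p = 0.0262), which no longer passed on leaving out MG1 replicate 2, MG2 replicate 1 or 2, or MT1 replicate 2 or 5, at 0.48 to 0.62, nor with RLE factors (0.56, adjusted p = 0.0573) or without a filter on low counts (0.71, adjusted p = 0.0515).

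Nrg1, the neuregulin that binds Erbb3 and Erbb4, was at 22.9 and 10.4 CPM in MG1 and at 6.5, 7.1, 8.1, 5.5 and 8.2 CPM in MT1. The groups did not overlap and the log2 change was -1.45 ± 0.27 (adjusted p = 1.62e-04), but without MG1 replicate 1 it was -0.42 (adjusted p = 0.605). In mouse 2 it was at 28.7 and 33.6 CPM in MG2 and at 34.8, 31.6 and 29.96 CPM in MT2, and these overlapping groups gave a change of 0.04 ± 0.19 (adjusted p = 0.853). The difference between the mice was -1.50 ± 0.32 (adjusted p = 0.00112), and -0.50 (adjusted p = 0.574) without MG1 replicate 1.

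Btc, which encodes betacellulin, a ligand of Egfr and Erbb4, was at 7.5 and 12.1 CPM in MG1 and between 2.4 and 7.0 CPM (median 5.1) in MT1, a change of -0.79 ± 0.40 that did not pass (adjusted p = 0.0968). It was at 9.6 and 8.0 CPM in MG2 and at 0.7, 0.6 and 0.6 CPM in MT2. The MT2 libraries were far below both MG2 libraries, with a log2 change of -3.75 ± 0.37 (adjusted p = 6.11e-08) and a difference between the mice of 2.96 ± 0.54 (adjusted p = 2.28e-04).

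Tgfa, another ligand of Egfr, gave 12.9 and 20.7 CPM in MG1, 5.5 to 13.5 CPM (median 10.4) in MT1, 15.1 and 12.9 CPM in MG2 and 11.9, 11.5 and 11.8 CPM in MT2. Neither change passed, at -0.67 ± 0.31 (adjusted p = 0.0746) and -0.26 ± 0.24 (adjusted p = 0.353). The change in MT1 did pass with DESeq2 (-0.82, adjusted p = 0.0353) and with RLE factors (-0.79, adjusted p = 0.0419).

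Ereg, which encodes epiregulin, a ligand of Egfr and Erbb4, was rare outside the stromal clusters: 0 and 12.1 CPM in MG1, 0 to 0.8 CPM in MT1, 4.1 and 0.9 CPM in MG2, and 0.2, 0.9 and 0.6 CPM in MT2. The level of MG1 replicate 2 came from 7 UMIs in 3 cells. In mouse 1 the change did not pass (-2.73 ± 1.39, adjusted p = 0.0992) and turned to 4.43 (adjusted p = 0.387) without that library. It passed with DESeq2 (-4.35, adjusted p = 0.0257), without the cells with the highest 5% of doublet scores (-4.03, adjusted p = 0.0371) and without MG1 replicate 1 (-4.71, adjusted p = 0.00261). In mouse 2 it was -2.11 ± 0.88 (adjusted p = 0.0414), which was lost with DESeq2 (adjusted p = 0.297), without a filter on low counts (-2.01, adjusted p = 0.0738) and without any 1 of MG2 replicate 1, MT1 replicates 1, 2, 4 and 5 and MT2 replicates 1 and 3, at -2.13 to -0.52. It turned to 1.72 (adjusted p = 0.00643) once the stromal clusters were included, which hold most Ereg UMIs of MT2.

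**Figure D2:**
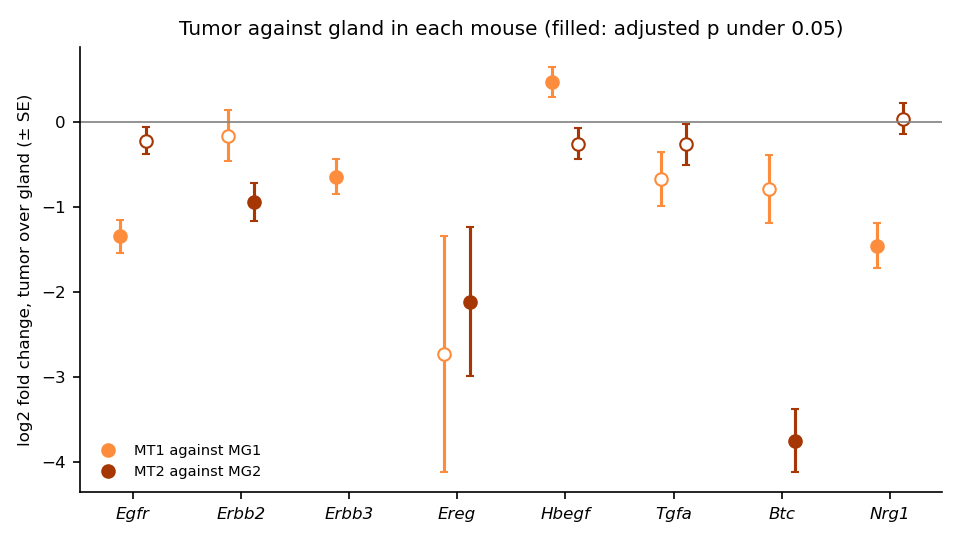
Log2 fold change of each member, tumor over gland, in mouse 1 (orange) and mouse 2 (brown), with the standard error; filled points have an adjusted p under 0.05. Erbb4, at 0 in both tumors, and Erbb3 in mouse 2, at 3 UMIs, are left out, and the largest drop drawn is that of Btc in mouse 2 at -3.75.

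Compared directly, the tumors differed in 6 members, in a comparison where 68.4% of all genes tested were called (35.3% higher and 33.1% lower in MT1). Erbb3 was higher in MT1 (424 UMIs in MT1 and 3 in MT2; pooled ratio 298, counting interval 101 to 1453), as were Btc (2.95 ± 0.34, adjusted p = 3.77e-07), Erbb2 (0.48 ± 0.19, adjusted p = 0.0336) and Hbegf (0.46 ± 0.15, adjusted p = 0.0104). Egfr (-1.02 ± 0.14, adjusted p = 2.29e-06) and Nrg1 (-2.17 ± 0.17, adjusted p = 2.26e-09) were lower in MT1 than in MT2. The Erbb2 call was lost with RLE factors (0.42, adjusted p = 0.0538), with DESeq2 (adjusted p = 0.0867) and without a filter on low counts (0.43, adjusted p = 0.0642). It was also lost without any 1 of MG2 replicates 1 and 2, MT1 replicates 2, 4 and 5 and MT2 replicates 1, 2 and 3, where it ranged from 0.29 to 0.53. Tgfa passed without MT1 replicate 1 (-0.49, adjusted p = 0.0453), and Ereg with the stromal clusters included (-3.81, adjusted p = 2.58e-06). The Hbegf call was lost without MG2 replicate 1 (0.33, adjusted p = 0.0670) or replicate 2 (0.33, adjusted p = 0.0680). Each tumor is 1 animal, and tumor and animal cannot be told apart.

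When each tissue was summed to 1 value per mouse and the mouse was kept as a block, edgeR called 0 of 14946 genes, although 2220 had an unadjusted p under 0.05 and DESeq2 called 1383. No member passed in edgeR. With DESeq2, Erbb3 (-4.63, adjusted p = 0.0240) and Erbb4 (adjusted p = 2.14e-06) did. With 1 sum per mouse and tissue, either fit has very little to estimate the spread from. The Erbb3 value averages changes that differed between the mice in the test above.

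The members were then located by cell type. These levels are CPM of the summed UMIs of a cluster, given as a description, since clusters were formed from the same cells. In the glands Egfr was highest in fibroblast-like cells (225.8 CPM in MG1 and 303.7 in MG2, pooled over libraries), followed by basal-like cells (97.9 and 97.1), luminal secretory-like cells (45.0 and 43.3) and luminal hormone-sensing-like cells (11.9 and 13.9). The order was the same in both glands, and the per-library ranges of the luminal and basal-like cells did not overlap.

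Erbb3 was highest in luminal hormone-sensing-like cells, at 42.1 and 43.1 CPM in the MG1 libraries and 67.7 and 78.4 CPM in the MG2 libraries. In luminal secretory-like cells it was at 25.4, 44.9, 22.1 and 30.8 CPM in the same order, so the luminal types overlapped in MG1 and not in MG2. Basal-like cells had 3.2 CPM in MG1 and 6.7 in MG2. Erbb4 ran the other way, with 17.2 and 14.4 CPM in luminal secretory-like cells and 8.6 and 9.9 CPM in luminal hormone-sensing-like cells, but these rest on 13 to 52 UMIs and MG1 replicate 2 had none in secretory-like cells. Among the epithelial types Erbb2 was highest in hormone-sensing-like cells (15.9 and 21.0 CPM), followed by secretory-like (9.8 and 14.4 CPM) and basal-like cells (3.2 and 6.7 CPM), and in fibroblast-like cells it was at 11.6 and 2.8 CPM, from 6 and 1 UMIs.

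The ligands of the glands were divided among the types as well. Nrg1 was highest in basal-like cells, at 163.7 CPM in MG1 replicate 1 and 186.7 and 246.2 CPM in the MG2 libraries. It was at most 34.96 CPM in any other named type of a gland library with 20 or more of its cells. The unnamed Prl2c3-high cells had 36.8 CPM in the 1 MG2 library with that many. Btc was found in luminal hormone-sensing-like cells (15.9 and 15.3 CPM), against 0.8 and 5.3 CPM in secretory-like cells and no UMI in basal-like cells. Epgn followed the same type, at 193.6 and 38.3 CPM, with MG1 replicate 1 at 223.3 CPM and replicate 2 at 47.0 CPM. Tgfa was at 31.6 and 36.8 CPM in basal-like cells and at 7.3 to 17.2 CPM in the luminal types, although the secretory-like cells of MG1 replicate 2 had 44.9 CPM. Endothelial-like cells of MG2 had 41.3 CPM of it, from 13 UMIs.

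Hbegf was present in every gland type with 20 or more cells. Among these its lowest levels were in fibroblast-like cells (233.5 CPM in MG1 and 137.8 in MG2). In MG2 it was highest in endothelial-like cells (2238.6 CPM, 95% counting interval 2076 to 2410), a type that the preparation was meant to deplete, while in MG1 the endothelial-like cells (809.9 CPM from 57 UMIs in 20 cells) and the luminal secretory-like cells (808.4 CPM) did not differ within counting error. Ereg in the glands came mainly from fibroblast-like cells of MG2 (21 UMIs, 59.1 CPM, 95% counting interval 36.6 to 90.3) and basal-like cells of MG2 (17 UMIs, of which 15 were in MG2 replicate 1).

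**Figure D3:**
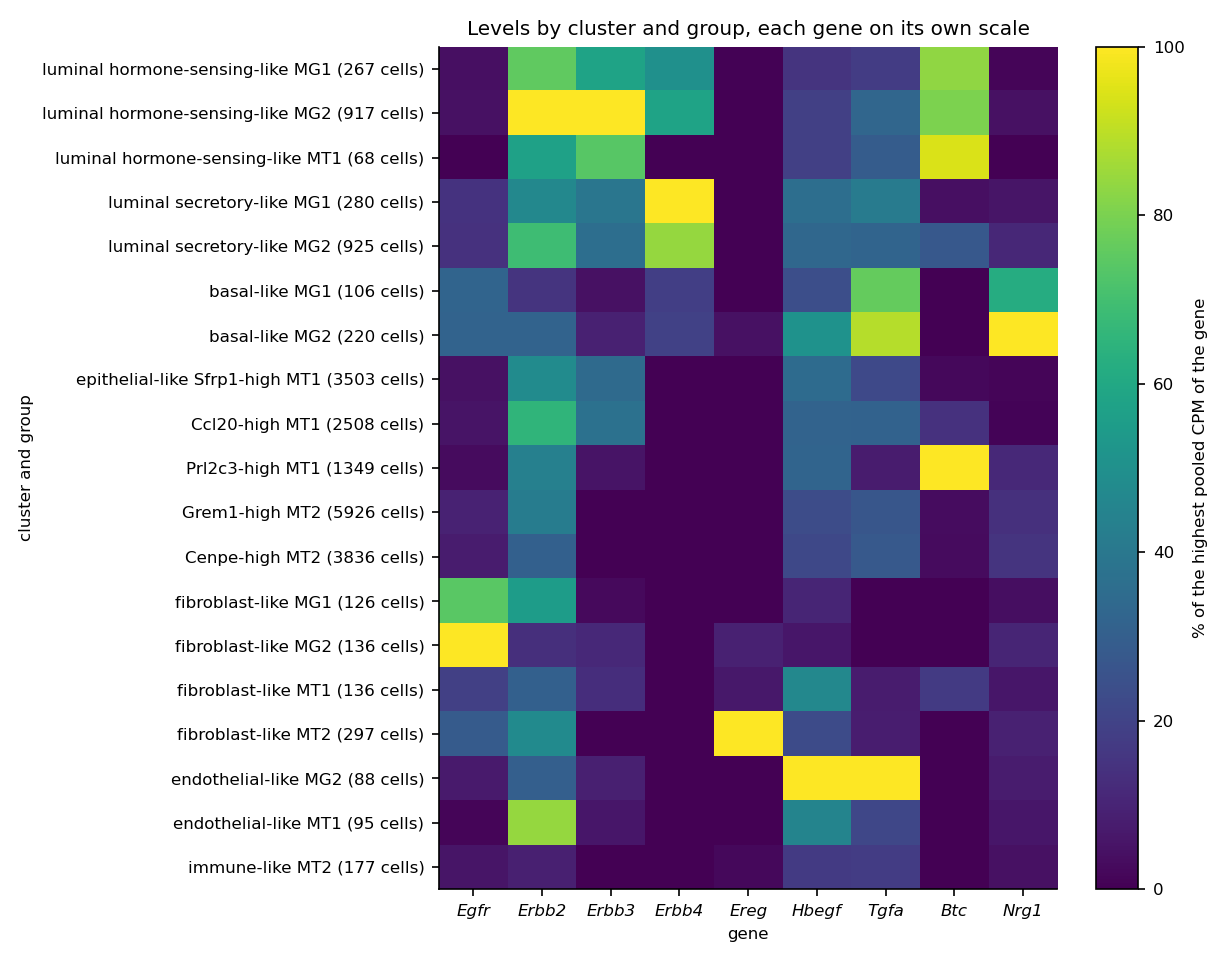
Pooled CPM of each member in the 19 combinations of cluster and group with 50 or more cells, as a percentage of the highest value of that gene, so that colors compare clusters within a gene and not genes. Fibroblast-like cells of MG2 hold the maximum of Egfr, fibroblast-like cells of MT2 that of Ereg, basal-like cells of MG2 that of Nrg1 and Prl2c3-high cells of MT1 that of Btc.

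Within MT1 the clusters differed in receptors and ligands. In its 5 libraries Erbb3 was at 24.9 ± 1.98 CPM (mean ± SD) in the epithelial-like Sfrp1-high cluster and at 26.5 ± 4.99 CPM in the Ccl20-high cluster, but at 3.96 ± 1.52 CPM in the Prl2c3-high cluster. Among these clusters, every library had its lowest Erbb3 level in the Prl2c3-high cluster, where the range was 2.5 to 6.2 CPM. Of the same clusters, the Prl2c3-high cluster instead had the highest Nrg1 and Btc in all 5 libraries. Nrg1 stood at 3.12 ± 1.91, 1.63 ± 1.15 and 26.2 ± 6.44 CPM in the order above, and Btc at 0.63 ± 0.48, 2.60 ± 1.75 and 17.9 ± 6.84 CPM. Other cell types of MT1 are not part of these rankings. Egfr differed less, at 14.1 ± 2.11, 15.2 ± 2.23 and 9.66 ± 2.64 CPM, with overlapping ranges. Of the 1406 cells of the Prl2c3-high cluster 44 came from MG2.

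**Figure D4:**
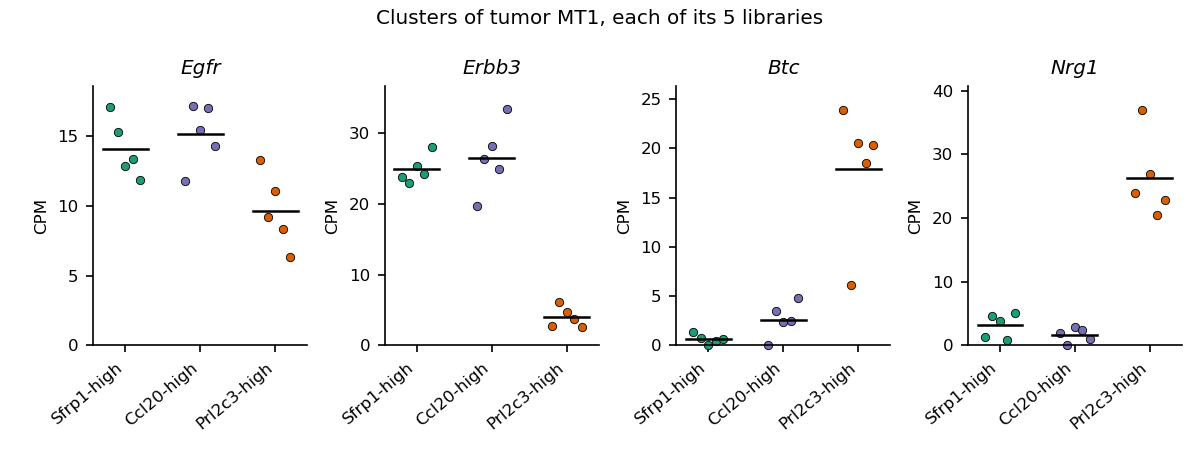
CPM of Egfr, Erbb3, Btc and Nrg1 (linear axes from 0) in the 3 main clusters of MT1, each point 1 of its 5 libraries and each line their mean. The Prl2c3-high cluster lies lowest for Erbb3 (3.96 ± 1.52 CPM) and highest for Btc and Nrg1 in every library.

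In MT2 the Grem1-high and Cenpe-high clusters had overlapping levels of 3 ligands over their 3 libraries. Nrg1 was at 29.8 ± 2.92 and 32.1 ± 0.81 CPM, Tgfa at 11.1 ± 1.21 and 11.4 ± 1.12 CPM and Hbegf at 527 ± 36.9 and 479 ± 49.5 CPM. Egfr was at 29.1 ± 2.51 and 22.8 ± 2.95 CPM, and the lowest Grem1-high library (26.2 CPM) was only just above the highest Cenpe-high library (26.1 CPM). Both clusters come from the same 3 libraries, so Egfr was higher in the Grem1-high cluster in each of them. The ligand ranges above were not compared library by library. Erbb2 was at 8.80 ± 0.58 and 6.48 ± 0.34 CPM, ranges that did not overlap. Epgn was at 54.2 ± 3.76 and 36.3 ± 2.56 CPM, again without overlap.

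The 68 luminal hormone-sensing-like cells of MT1 had Erbb3 at 53.9 CPM and Epgn at 215.5 CPM. Erbb4 and Egfr had no UMI there. Among their summed UMIs, 3 counts would be 18.0 CPM, so the gland levels of Erbb4 and Egfr in this type were not detectable at this depth.

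Fibroblast-like cells were the 1 type with enough cells in all groups for a test: 11 libraries with 20 or more such cells entered it, MT1 replicate 1 with 13 cells being left out. There Egfr was lower and Hbegf higher in the tumor of both mice, and Ereg was higher in MT2 than in MG2, while in mouse 1 its call rested on few UMIs. These 3 members were the ones that passed the filter on low counts, so their number is not read as a result. In MT1 against MG1 33.7% of the 4150 genes tested were called (15.6% higher, 18.1% lower), and in MT2 against MG2 20.4% (8.39% higher, 12% lower). The other 6 members had too few UMIs in these cells to be tested.

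In levels scaled as before, Egfr in fibroblast-like cells was at 197.9 and 541.5 CPM in MG1 and at 13.3, 79.8, 85.2 and 54.2 CPM in MT1. The groups were apart, with a log2 change of -2.57 ± 0.50 (adjusted p = 6.34e-04). In MG2 it was at 301.4 and 416.3 CPM and in MT2 at 127.0, 59.7 and 84.4 CPM, also apart, with a change of -1.97 ± 0.42 (adjusted p = 0.00178). Without MG2 replicate 2 the change in mouse 2 was -1.70 (adjusted p = 0.0583).

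Hbegf in fibroblast-like cells was at 345.5 and 110.3 CPM in MG1 against 1054, 1144, 1164 and 1067 CPM in MT1, and at 165.1 and 164.0 CPM in MG2 against 485.9, 700.1 and 488.3 CPM in MT2. No tumor library fell within the range of its gland. The log2 changes were 2.16 ± 0.35 (adjusted p = 1.02e-04) and 1.76 ± 0.37 (adjusted p = 0.00149). In unscaled CPM the mean over MT2 libraries was 524, beside 527 in Grem1-high, 479 in Cenpe-high and 390 in immune-like cells. In MT1 it was 1052, beside 760 in Sfrp1-high, 693 in Ccl20-high and 713 in Prl2c3-high cells. The MT2 level was thus no higher than that of the Grem1-high cells, and the part of free RNA was not tested.

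Ereg in fibroblast-like cells was at 64.6 and 75.7 CPM in MG2 and at 809.9, 362.0 and 870.2 CPM in MT2. Even the lowest MT2 library was several times the highest MG2 library, and the log2 change was 3.26 ± 0.48 (adjusted p = 4.89e-05). In mouse 1 the gland held 1 UMI and the 4 tumor libraries 53.4, 66.5, 0 and 72.3 CPM from 13 UMIs. The pooled ratio was 23.2 with a counting interval from 3.48 to 985, and the fitted change had an adjusted p of 0.00939, or 0.0562 without MG1 replicate 1.

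**Figure D5:**
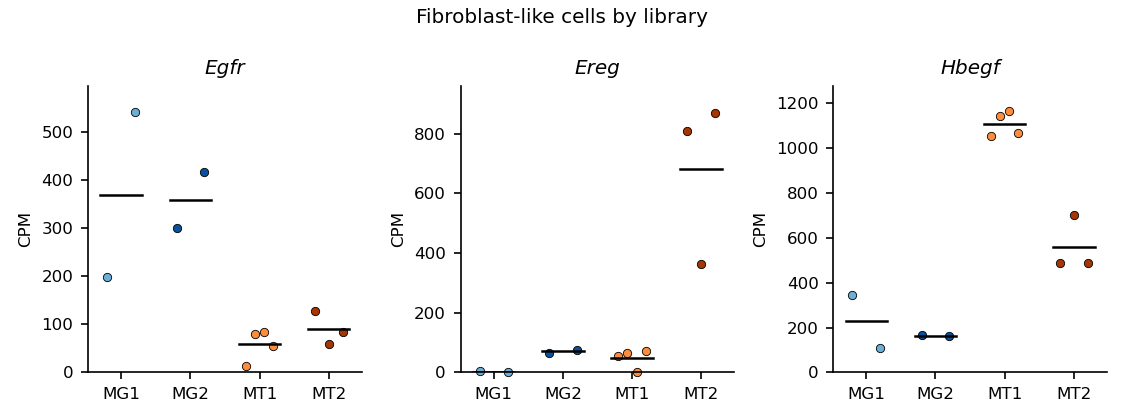
CPM of Egfr, Ereg and Hbegf (linear axes from 0) in fibroblast-like cells of the 11 libraries with 20 or more of them, each point 1 library and each line the mean of its group. Egfr is lower in all 7 tumor libraries than in the 4 gland libraries, Hbegf is higher, and Ereg is above 360 CPM only in the 3 MT2 libraries.

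Other cell types were measured in the same fibroblast-like sums. The 9 epithelial markers summed to 1575 to 2449 CPM in MG1, 989.8 to 1624 in MG2, 1837 to 3015 in MT1 and 163.1 to 471.7 in MT2, where Epcam, Krt19, Cdh1 and Cldn4 were at 0. The 7 mural markers summed to 23.2 to 43.7 CPM in MG1 and 125 to 189 in MT1, and to 84.5 to 158 in MG2 and 6.88 to 57.1 in MT2. The 9 basal markers, some of them contractile, summed to 108 to 386 CPM in MG1, 229 to 321 in MG2, 655 to 1212 in MT1 and 158 to 354 in MT2, with Oxtr at 0 in all groups. The 9 cycling genes summed to 111 to 116 CPM in MG1, 127 to 411 in MG2, 259 to 487 in MT1 and 376 to 1217 in MT2. The 11 luminal secretory markers summed to 1112 to 1158 CPM in MG1, 995 to 1207 in MG2, 378 to 1199 in MT1 and 37.9 to 98.9 in MT2, and the 11 hormone-sensing markers to 1006 to 1120, 779 to 1032, 832 to 919 and 186 to 337 CPM. The 9 fibroblast markers themselves summed to 15010 to 15170 CPM in MG1, 22090 to 28760 in MG2, 25930 to 33590 in MT1 and 22280 to 40880 in MT2. The immune markers were at most 24.1 CPM in any group. The 5926 Grem1-high cells of MT2 had 0.66 CPM of Ereg, and the fibroblast-like cells of the same tumor had 649.9 CPM. The part of these cell types and of cycling cells in the 3 changes was not tested.

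The share of cells with a UMI was compared after each cell had been thinned to 1000 UMIs, which left out 0 cells, since the lowest cell had 1111. Over libraries, Egfr was seen in 7.37 ± 1.7% of MG1 cells, 4.59 ± 0.99% of MG2 cells, 1.48 ± 0.26% of MT1 cells and 3.00 ± 0.27% of MT2 cells, stromal cells included. Without thinning these shares were 20.5, 12.3, 3.54 and 10.6%. Erbb3 was seen in 1.93 ± 0.042, 4.28 ± 0.28, 2.16 ± 0.28 and 0.019 ± 0.019% (11.4, 12.5, 5.33 and 0.032% without thinning). The Erbb3 shares of MG1 and MT1 overlapped at this depth, but with thinning to 500 UMIs they were 1.51 ± 0.55 and 0.895 ± 0.12%, with every MT1 library below both MG1 libraries.

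Hbegf was the member seen in most cells, in 27.5 ± 3.8, 35.6 ± 2.0, 44.2 ± 3.3 and 33.3 ± 3.1% of MG1, MG2, MT1 and MT2 cells (53.2, 53.9, 66.2 and 62.4% without thinning). Nrg1 was seen in 1.81 ± 1.2, 2.79 ± 1.1, 0.836 ± 0.22 and 2.99 ± 0.22%, and Ereg in 0.476 ± 0.67, 0.425 ± 0.36, 0.087 ± 0.060 and 1.15 ± 0.56%. For Erbb2, Tgfa and Btc the thinned shares were between 0.616 and 1.72%, apart from 0.070 ± 0.0072% for Btc in MT2. Erbb4 was seen in 0.631 ± 0.89% of MG1 cells and 0.726 ± 0.17% of MG2 cells and in no tumor cell.

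By cell type the highest share of Egfr was that of gland fibroblast-like cells, 21.4% of 126 cells in MG1 and 22.1% of 136 cells in MG2. In the tumors it was 10.3% of 136 fibroblast-like cells of MT1 and 9.43% of 297 of MT2. As a measure of free RNA within the same tissues, an Egfr UMI was seen in 0 of 88 endothelial-like cells of MG2 (up to 3.41%), in 1 of 95 of MT1 and in 2.26% of the 177 immune-like cells of MT2. The median depths before thinning were 2417, 1912 and 2289 UMIs in these cells and 1911 to 3222 UMIs in the fibroblast-like cells. MG1 held too few stromal cells of another type for such a measure. Without thinning the Egfr shares of fibroblast-like cells were 46.0, 44.1, 12.5 and 21.5% in MG1, MG2, MT1 and MT2, against 7.95% of the endothelial-like cells of MG2, 1 of 95 of those of MT1 and 5.08% of the immune-like cells of MT2.

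Ereg was seen in 31.6% of the MT2 fibroblast-like cells (95% Clopper-Pearson interval 26.4 to 37.3%, 52.5% without thinning), against 2.26% of the immune-like cells and 0.0506% of the Grem1-high cells of that tumor. In MT1 it was seen in 3.68% of the fibroblast-like cells (interval 1.2 to 8.4%, from 5 cells), against 0 of 2508 Ccl20-high cells (up to 0.120%) and 0 of 3503 Sfrp1-high cells (up to 0.0856%), and in MG2 in 3.68% (also 5 cells), against 0 of 925 luminal secretory-like cells (up to 0.324%) and 1.82% of the 220 basal-like cells (interval 0.498 to 4.59%), with which it overlapped within counting error. Median depths were 2491, 1911 and 2036 UMIs in the fibroblast-like cells of MT2, MT1 and MG2 and 1986 to 2978 UMIs in the others. In MG1 Ereg was seen in 0 of 126 fibroblast-like cells, which allows up to 2.38%. Without thinning the Ereg shares were 0.794, 7.35 and 5.88% in MG1, MG2 and MT1. Those of the cells set against them were 3.39% (immune-like) and 0.236% (Grem1-high) in MT2, 0 in both types of MT1, and 0.108% (luminal secretory-like) and 5.45% (basal-like) in MG2.

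Hbegf was seen in 13.5 and 10.3% of the fibroblast-like cells of MG1 and MG2 and in 40.4 and 29.0% of those of MT1 and MT2, and no type with 20 or more cells lacked it. Erbb3 was seen in 7.85% of the hormone-sensing-like cells of MG2, against 0.455% of its basal-like cells and 0 of 88 endothelial-like cells. Btc was seen in 2.67% of the Prl2c3-high cells of MT1, against 0.114% of its Sfrp1-high cells. Nrg1 was seen in 11.3% of basal-like cells in MG1 and 15.5% in MG2, against 0 of 267 (up to 1.12%) and 0.872% of the hormone-sensing-like cells of the same glands, at median depths of 2543 and 1986 against 4421 and 2576 UMIs. Without thinning the shares were 31.0, 20.6, 61.0 and 50.8% for Hbegf in fibroblast-like cells of MG1, MG2, MT1 and MT2, 22.1% for Erbb3, 4.74% for Btc and 26.4 and 30% for Nrg1 in the cells just named. The cells set against them were then at 1.82% (basal-like) and 2.27% (endothelial-like) for Erbb3, 0.114% for Btc and 1.12 and 2.73% for Nrg1. For Hbegf, over all groups, the unthinned shares were 61.4% of Grem1-high, 64.0% of Cenpe-high and 40.3% of immune-like cells, which were mostly of MT2. They were 67.0% of Sfrp1-high, 64.4% of Ccl20-high and 71.2% of Prl2c3-high cells, which were mostly of MT1. Intervals and limits cover counting error only.

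To see which genes followed the members from cluster to cluster, correlations were taken over the 19 combinations of cluster and group among 13355 other genes. They describe these profiles, which share libraries and depth. Egfr was most like Gria4 (Pearson r = 0.91), Ptx3 and Numbl, and Erbb2 like Tmem63b (0.88), Med24 and Serinc5. Erbb3 was most like Rasef (0.96), Tmc4 and Tom1l1, and Erbb4 like Plet1os (0.93), Lipe and Liph. Among the ligands, Ereg was most like Fbn2 (0.92), Serpinb2 and Crabp1, Nrg1 like Fndc4 (0.92), Elovl4 and Nexn, and Tgfa like Pkp4 (0.91), Itga3 and Epha2. Btc was most like Sprr1a (0.86), Pak6 and Mboat1, and Hbegf like Pigw (0.82), Proser1 and Hnrnpdl.

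Neighbours on the chromosome did not all move with the members. Of the 54 places next to the 9 members (the 3 nearest genes with 100 or more UMIs on each side), 51 held a tested gene, of which 18 were higher and 17 lower in MT1 and 15 higher and 23 lower in MT2, beside 32.2% and 27.1% of all genes tested in MT1 and 32.7% and 34.3% in MT2. These are counts of places, not of distinct genes. Mthfd2l, Epgn, Parm1 and Gm7832 stand beside both Ereg and Btc, and these members also count as neighbours of each other. Beside Erbb2, the genes Stard3 (0.81), Pgap3 (1.2), Mien1 (0.52) and Grb7 (1.21), which in human tumors are often amplified with it, rose in MT1 on the log2 scale, where Erbb2 itself was at -0.16. The other 2 neighbours, Ppp1r1b (1.131, adjusted p = 0.169) and Ormdl3 (0.10, adjusted p = 0.705), did not pass the test in MT1 and were both lower in MT2 (adjusted p = 7.61e-07 for Ppp1r1b, and -0.66 with adjusted p = 0.00203 for Ormdl3), and neither was refitted under the alternatives. The calls of Stard3 (0.37, adjusted p = 0.418) and Grb7 (0.74, adjusted p = 0.234) were lost without MG1 replicate 1 and those of Pgap3 (0.86, adjusted p = 0.112) and Mien1 (0.39, adjusted p = 0.0652) without MG1 replicate 2, and that of Pgap3 also without MT1 replicate 4 (1.14, adjusted p = 0.0632), with DESeq2, with RLE factors, without the gland cells in tumor clusters, without the cells of highest doublet score and in a fit of the 2 groups alone. In MT2 Stard3 (-0.59), Pgap3 (-0.94), Mien1 (-0.62) and Erbb2 (-0.94) fell, and Grb7 had no UMI. These calls were lost without MG2 replicate 1 for Stard3 (-0.41) and Mien1 (-0.30), without MG2 replicate 2 for Stard3 (-0.35), Pgap3 (-0.43) and Erbb2 (-0.54), and without MT1 replicate 2 or 5 for Stard3 (both -0.45). In the ligand cluster of chromosome 5, Epgn fell in MT1 (-4.72, adjusted p = 2.59e-08) and rose in MT2 (1.40, adjusted p = 0.00196), next to Ereg and Btc with the values above, and Mthfd2l rose in both (1.84 and 2.06).

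Of the ligands outside the 9 members, Epgn was the 1 that could be tested in these sums. Its levels were 119.8 and 24.2 CPM in MG1, 1.6 to 5.5 CPM in MT1, 16.3 and 20.2 CPM in MG2 and 46.0, 49.5 and 49.1 CPM in MT2, and neither pair of groups overlapped. The change of Epgn in mouse 1 was -2.81 without MG1 replicate 1. Egf was at 0 UMIs in both glands and between 0 and 0.8 CPM in the tumors, and Nrg2 and Nrg4 were at or below 1.7 CPM in every library. These 3 genes did not pass the filter. Areg and Nrg3 were not analysed here.

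The rest of the pathway was followed through 61 further genes: proteases that release the ligands, adaptors, kinases of the RAS-MAPK and PI3K-AKT branches, inhibitors and target genes. With Epgn, 62 genes were tested, of which 26 passed in MT1 against MG1 (10 higher, 16 lower) and 40 in MT2 against MG2 (14 higher, 26 lower). These are 41.9% and 64.5% of the list, beside 59.3% and 67.0% of all genes tested. Their median log2 changes were -0.01 and -0.22, beside the medians of 0.11 and -0.05 over all genes. Of the 19 inhibitors 2 were higher and 6 lower in MT1, and 2 were higher and 10 lower in MT2, so that in total 42.1% and 63.2% of them were called, no more than of all genes. By direction, 32.2% of all genes tested were higher and 27.1% lower in MT1, and 32.7% higher and 34.3% lower in MT2. Targets were divided, with 2 of 9 higher and 2 lower in MT1, and 4 higher and 4 lower in MT2. Of the 8 adaptors 2 were higher and 3 lower in MT1, and 1 was higher and 5 lower in MT2. Among the 7 proteases and their cofactors 1 was higher and 2 lower in MT1, and 2 were higher and 3 lower in MT2. The 10 RAS-MAPK genes gave 3 higher and 1 lower in MT1, and 1 higher and 2 lower in MT2. The 8 PI3K-AKT genes gave 0 higher and 1 lower in MT1, and 3 higher and 2 lower in MT2.

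By the rule of a change of 1 or more on the log2 scale in both mice, 9 of these genes are named. Etv4, a transcription factor induced by MAPK signaling, rose in both, from 3.3 and 0 CPM in MG1 to between 23.3 and 35.3 CPM in MT1 (3.46) and from 3.1 and 3.5 CPM in MG2 to 21.2, 19.0 and 22.1 CPM in MT2 (2.64). Adam12, a protease that can release Hbegf, rose as well (1.82 and 6.00), but in mouse 1 not without MG1 replicate 1 (0.61, adjusted p = 0.618) or with the stromal clusters included (0.44, adjusted p = 0.311). The adaptor Sos2 (-1.95 and -1.57), the RAS inhibitor Nf1 (-1.14 and -1.59), Socs4 (-1.08 and -1.36) and Spry2 (-1.43 and -1.75), a feedback inhibitor of receptor tyrosine kinases, fell in both, with Nf1 in mouse 1 at -0.73 (adjusted p = 0.0557) without MG1 replicate 1. The other 3 went opposite ways. Spry1 was up in MT1 and down in MT2 (1.77 and -3.39), as was Dusp6, a phosphatase of ERK (1.04 and -1.37). Grb7, an adaptor of Erbb2, was up in MT1 (1.21, or 0.74 and not called without MG1 replicate 1) and had no UMI in MT2, where it was at least 214-fold lower than in MG2.

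In fibroblast-like cells 27 of the listed genes were tested, and 8 passed in MT1 against MG1 (1 higher, 7 lower) and 7 in MT2 against MG2 (2 higher, 5 lower), or 29.6% and 25.9%, beside 33.7% and 20.4% of all genes tested. Dusp4, another phosphatase of the MAPK branch, rose in both mice (3.02 and 3.75), and Egr1 (-1.94 and -2.40), an early response gene, fell in both, under every alternative run. Errfi1, an inhibitor of Egfr, fell as well (-0.79 and -1.11), calls lost without MG1 replicate 1 or MT1 replicates 2 or 4 or the cells with the highest 5% of doublet scores in mouse 1 and without MG2 replicate 1 in mouse 2. Spry2 (-2.25 and -1.37) was not called in mouse 2 without any 1 of the MG2 or MT2 libraries or MT1 replicate 5, nor with DESeq2 or without the cells of highest doublet score. Myc (-1.25 and -1.54) was not called in mouse 1 without MG1 replicate 2, MG2 replicate 2, MT1 replicates 2, 3 or 4 or MT2 replicates 1 or 3, with DESeq2 or without the cells of highest doublet score, nor in mouse 2 without MG2 replicate 2 or MT2 replicate 2. These 5 were chosen after their values were seen. The median changes were -0.15 and 0.02 over the 27 genes, beside 0.01 and 0.04 over all genes tested.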

How the data were processed

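Single-cell suspensions of 4 tissues were measured by Drop-seq in 12 libraries. Per the labels and the study's methods, the authors aligned reads with STAR to GRCm38.p6, kept cells by genes detected and the share of mitochondrial reads, and deposited raw UMI counts of 21157 cells, with no normalization; strand use is not given in the sources used here. All cell columns were assigned to a library. Members and lists were chosen with earlier results of these data known.

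Cells were clustered with scanpy 1.11.5 (3000 variable genes without the members and the pathway list, 30 components, 20 neighbours, Leiden resolution 0.6) and named from marker lists. A doublet caller marked 0.208% of cells, a share so low that the caller may not have worked. This was not tested, and no cell was removed for it. UMIs were summed per library, filtered with filterByExpr, scaled with TMM and tested with edgeR 4.0.16 (quasi-likelihood, all groups in 1 fit, Benjamini-Hochberg adjustment, threshold 0.05). RLE factors moved the median change by -0.11 in MT1 against MG1 and -0.15 in the difference between the mice relative to TMM. Shares used cells thinned to 1000 UMIs. Intervals cover 95%, and where no UMI was seen the limit is that of 3 counts. Named genes were the members, the other EGF-like ligands, up to 12 pathway genes past a log2 change of 1 in both mice, the 3 most alike genes over profiles of log2(CPM + 10) and the 3 nearest genes on each side. Alternatives were DESeq2 1.42.0, RLE, no filter, other cell sets, Leiden resolution 1.0, thinning to 500 UMIs and leaving out each library. The fits were run on simulated counts, drawn with the spread that the fits themselves estimated and with equal changes in both tumors. Such counts hold no differences between animals or in cell mixture, so they cannot show how the fits deal with these.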

Additional observations from a re-analysis of the deposited data

Results flagged for a closer look

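The change from gland to tumor differed between the mice for 5 members by the interaction test of edgeR: Egfr (-1.12 on the log2 scale, mouse 1 minus mouse 2), Erbb3 (8.12, fitted on 3 UMIs in MT2), Hbegf (0.72), Btc (2.96) and Nrg1 (-1.50). These are 55.6% of the members, beside 43.5% of all genes tested, so their number is not read as a result. Without MG1 replicate 1 the difference was -0.74 for Egfr and -0.50 for Nrg1. The Hbegf call was lost under several settings, given above. Of 24 sets of 4 or 5 MT1 libraries that were checked for 1 library far from the others, 2 held one, where chance flags about 1 in 20: Tgfa in fibroblast-like cells, with UMIs in MT1 replicate 3 alone, and Btc in fibroblast-like cells, with UMIs in MT1 replicate 5 alone. In both the gap to the nearest library was the whole range (a ratio of 1), and each rests on 1 UMI.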

How the results depend on the processing

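Of 412 member changes under settings that kept all libraries, 391 stayed on the same side of the threshold with the same sign, 11 lost their call, 8 gained one and 2 turned sign. Both reversals were of Ereg with the stromal clusters included, to 1.72 in MT2 against MG2 and to 0.52 in the fit by mouse. Leaving out 1 library cost 32 of 581 values their call, gave 3 a call and turned the sign of 8. The values whose sign turned are listed next with their ranges. The ranges were -0.35 to 0.82 for Erbb2 and -4.71 to 4.43 for Ereg in MT1 against MG1, -0.30 to 0.055 for Egfr, -0.33 to 0.015 for Hbegf, -0.28 to 0.063 for Tgfa and -0.032 to 0.37 for Nrg1 in MT2 against MG2, and for Ereg -2.62 to 6.53 in the difference between the mice and -1.21 to 0.10 in MT1 against MT2. Where 1 library of a gland is left, it is assumed to vary like the other groups. Of the other named genes, 301 of 312 values kept sign and call with all libraries and 414 of 446 with 1 left out, and none of these turned sign. Counts of called genes stayed within 1.5 times in all but 4 of 138 cases: DESeq2 called 1383 genes in the fit by mouse against 0, leaving out 1 library gave 0 to 4 there (4 without MG1 replicate 1), and for fibroblast-like MT2 against MG2 385 to 1076 against 848 (419 without MG2 replicate 1 and 385 without replicate 2). The cause was not tested. Of the shares, 33 of 36 moved by more than 1 SD without thinning and 26 of 36 with thinning to 500 UMIs. MG1 replicate 2, with 105 cells, limits every value of MG1.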
